A study of Mus musculus with 6 samples.

Results

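Integrin alpha subunits decide which matrix protein a cell holds on to, and 8 mouse genes for such subunits were examined here: Itga1, Itga2 and Itga11 (collagen receptors), Itga3, Itga6 and Itga7 (laminin receptors), and Itga4 and Itga9 (receptors for tenascin, fibronectin splice forms, osteopontin and VCAM1). The rule that picks them uses their symbols alone, but the list was drawn up with earlier results of these data known. In the deposited count table, 7 of the 8 have a row among 14831 genes, and all 7 passed the filter on low counts with which 14289 genes were tested. Itga4 has no row in the table used here and was not analysed here. Between the 2 groups of fibroblasts compared, Itga11 differed by 12.4-fold, from 18.3 to 226 CPM (read counts relative to the size of the library) on average, Itga6 was 3.41-fold higher in the same libraries, and Itga9 was 2.15-fold lower.

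The libraries came from immortalized pancreatic fibroblasts of mixed strain, grown to confluence in medium with calf serum, 3 wells of genotype WT and 3 of genotype Gli2-/-;Gli3-/-. According to the study's methods, such lines were grown out of the pancreas of adult mice with floxed Gli alleles, immortalized, and then infected with adenovirus, with eGFP in both arms, Cre for the deletion and a dsRed lentivirus for the control, before infected cells were sorted. The series' text calls the 3 samples of a group biological replicates and the growth protocol calls them wells, and from which line or clone each came was not given in the sources used here, so p values measure the spread between these wells, which may be technical. Because the comparison sets cells that received Cre against cells that did not, the deletion, the Cre infection and the choice of line cannot be told apart.

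The whole-gene counts of the 2 targeted genes do not run the way the labels would have it, while those of Gli1 and Ptch1, 2 transcriptional targets of the pathway, were lower in the libraries with the KO label. According to the study's methods, infected lines were screened for recombination by qPCR and western blot. The paper reports the Gli deletion in its lines as borne out by both methods. It also reports that Gli2/Gli3 KO pancreatic fibroblasts did not respond to Hedgehog stimulation, while parental controls did. Gli2 had 809, 944 and 868 counts in the WT-labelled libraries and 1932, 2316 and 1926 in the KO-labelled ones, and Gli3 had 392, 416 and 398 against 1434, 1637 and 1404. Both were therefore higher in the KO-labelled libraries, by 1.05 and 1.71 on the log2 scale. These are counts over whole genes, which can include exons that Cre does not remove, and which exons are floxed was not given in the sources used here. Why both genes had more counts in the KO-labelled libraries was not tested. Gli1 had 40, 50 and 37 counts against 4, 10 and 13, a log2 fold change of -2.40 (adjusted p = 2.30e-05, edgeR). Ptch1, the Hedgehog receptor, had 7046, 7912 and 7834 counts against 2732, 3416 and 2851, a log2 fold change of -1.53 (adjusted p = 2.16e-11, edgeR). No library was moved, and each library is named below by its label alone, as WT-labelled or KO-labelled.

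Every integrin at the cell surface is a pair of 1 alpha and 1 beta chain. The alpha chains examined here all pair with the beta1 chain Itgb1, while Itga6 also pairs with Itgb4 and Itga4 with Itgb7. Fibroblasts use the collagen receptors to grip and contract fibrillar collagen, the laminin receptors to bind basement membranes, and the alpha9 receptor to bind tenascin-C. Inside the cell, talin and kindlin bind the beta tail and link it to actin.

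Of the 3 collagen-receptor genes, Itga11 made by far the largest move and is shown here with the other 2 by the sequence that precedes the transcription start. RefSeq promoter entries on GRCm38.p6 were found for 6 of the 8 members (none for Itga6 and Itga7), and the 250 bases upstream of the start are printed 5′ to 3′ for Itga11 (chr9:62677605-62677854, plus strand), Itga1 (chr13:115101965-115102214, minus strand) and Itga2 (chr13:114932101-114932350, minus strand). The Itga11 window ends past the gene start of 62677826 in GENCODE M21, so its last bases lie inside that gene model. Capitals mark matches, on either strand, to the E-box letters CAGGTG or the ETS letters AGGAAG.
Itga11: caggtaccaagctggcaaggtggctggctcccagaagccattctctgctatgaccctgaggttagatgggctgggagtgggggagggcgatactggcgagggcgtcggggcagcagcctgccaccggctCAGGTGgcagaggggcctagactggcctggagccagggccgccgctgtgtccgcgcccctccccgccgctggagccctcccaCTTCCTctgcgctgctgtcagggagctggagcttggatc
Itga1: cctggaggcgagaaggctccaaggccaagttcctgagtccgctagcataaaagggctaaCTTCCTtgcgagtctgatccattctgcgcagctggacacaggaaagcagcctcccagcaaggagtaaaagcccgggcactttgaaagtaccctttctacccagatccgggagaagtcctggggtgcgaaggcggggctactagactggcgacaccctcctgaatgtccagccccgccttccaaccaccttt
Itga2: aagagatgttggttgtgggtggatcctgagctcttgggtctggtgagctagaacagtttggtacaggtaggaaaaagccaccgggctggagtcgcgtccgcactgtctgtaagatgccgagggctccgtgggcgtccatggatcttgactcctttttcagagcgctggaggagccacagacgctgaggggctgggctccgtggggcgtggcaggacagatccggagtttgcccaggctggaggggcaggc
The Itga11 window holds 1 E-box match and 1 ETS match that do not overlap, the Itga1 window 1 ETS match, and the Itga2 window neither. Of all 32817 windows of this length, 17.2% hold the E-box letters and 29.5% the ETS letters. Both sets of letters were chosen after the sequences had been read, so these shares are no test of the matches. The GLI letters GACCACCCA, found in 0.225% of windows, the TEAD letters GGAATG, found in 12.6%, and the GC box GGGCGG, found in 32.7%, were not matched in these 3 windows. The window at the outermost start of Itga3 held 3 GC boxes. The G and C content of the Itga11 window was 68.4%, against 57.6% for Itga1, 60.8% for Itga2 and a median of 52.4% over all windows. A match is a description of letters and not a binding site, and no match says only that the letters are not in the window.

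Markers of other cell types moved with the groups. The cells have the fibroblast label, and 9 of 10 listed fibroblast markers have a row, with summed levels of 44834 to 47247 CPM in the WT-labelled libraries and 36784 to 38534 CPM in the KO-labelled ones. Of these, 8 were tested and 5 were lower, beside 6.1% of all genes tested. Among the 5 were Dcn (log2 fold change -1.55) and Lum (-5.60). Col1a1 (0.01), Vim (-0.13) and Col1a2 (-0.19) were not called. Thy1, which was not tested, had 4, 1 and 0 counts in the WT-labelled libraries and 19, 15 and 9 in the KO-labelled ones. Each of the 3 mesothelial markers was called higher, beside 11.6% of all genes tested. Msln had 77, 91 and 62 counts against 5949, 6904 and 5392 (6.12), and the class summed to 20.6 to 23.2 CPM against 239 to 241 CPM. Of 6 epithelial markers, 3 have a row, with 4.29 to 5.23 CPM in sum in the WT-labelled libraries and 23.9 to 24.4 CPM in the KO-labelled ones. Krt7 was higher by 2.40 and Cdh1 by 1.08 on the log2 scale, and Epcam, Krt18 and Krt19 have no row. Leukocyte markers summed to at most 2.90 CPM in any library. None of the 4 endothelial markers has a row. The mural markers Acta2 and Tagln, abundant in cultured fibroblasts, summed to 1850 to 2021 CPM and 1908 to 1990 CPM, and neither was called. Of the acinar markers Cela1 alone has a row (7.36 to 8.84 CPM against 13.6 to 15.4 CPM, a called rise). The Schwann and muscle markers summed to at most 2.79 CPM, with Sox10, Myod1 and Myog without a row, and of the platelet markers Itga2b alone has a row, at 11.9 to 15.6 CPM. The part of these markers in the changes of the integrin genes that follow was not tested. The plot of markers shows the levels by library.

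**Figure D1:**
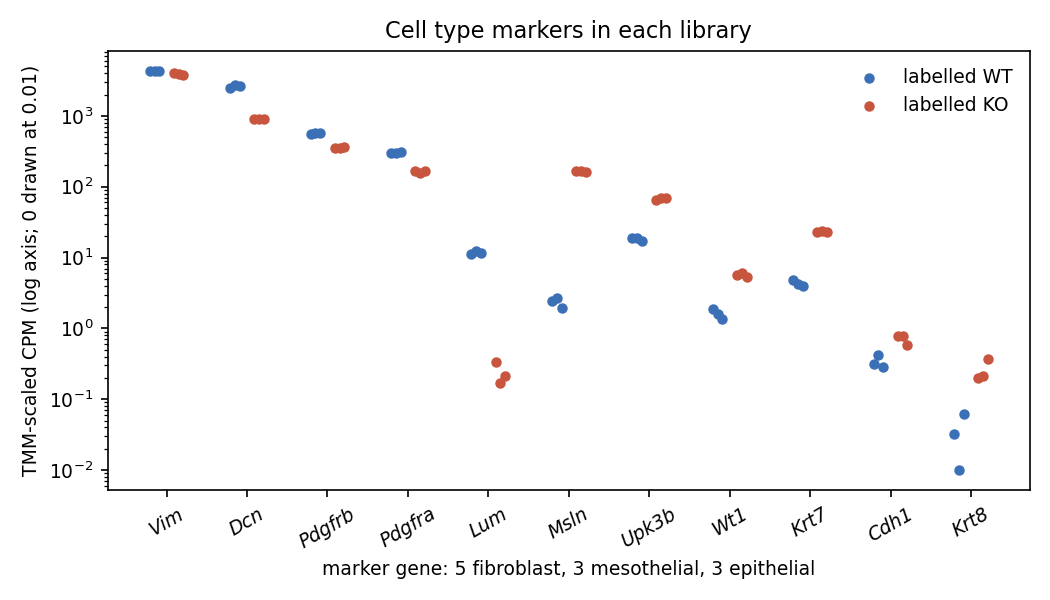
TMM-scaled CPM (log axis, a count of 0 drawn at 0.01) of 11 marker genes, 1 point for each library. Mesothelial and epithelial markers lie higher in the KO-labelled libraries, with Msln at 163 to 168 CPM against 1.94 to 2.72 CPM, while Dcn and Lum lie lower.

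Among the 7 members with a row, Itga11, Itga6 and Itga2 were higher and Itga9 was lower in the KO-labelled libraries, by at least 1.5-fold with an adjusted p under 0.05 (quasi-likelihood F test of edgeR, Benjamini-Hochberg adjusted over every gene tested). Those 4 are 57.1% of the members, a share given as a description since the list was not drawn blind to these data, and 17.7% of all genes tested were called by the same rule, 11.6% as higher and 6.1% as lower. Itga1 and Itga3 passed the p threshold with smaller changes, and Itga7 did not pass it. With no fold limit 6 of 7 members (85.7%) were called, 4 higher and 2 lower, beside 58.7% of all genes, 29.9% higher and 28.8% lower. The values of the groups did not overlap for 6 members (85.7%), beside 64.2% of all genes. The median log2 fold change was 0.27 over the members and 0.00 over all genes tested. The median size of a change was 0.70 on the log2 scale for the members, against 0.22. Whether fewer cells expressing a gene or less RNA per cell gave a lower value cannot be told apart in bulk RNA. The plot of members by library shows these levels.

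**Figure D2:**
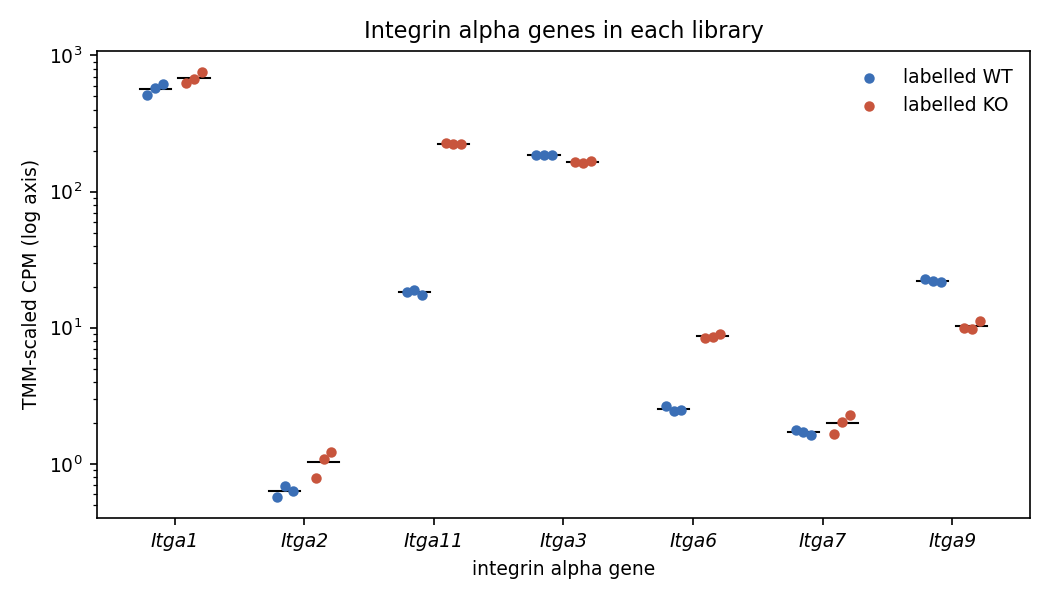
TMM-scaled CPM (log axis) of the 7 integrin alpha genes with a row, 1 point for each library and a bar at the mean of 3. Itga11 moved from 17.4 to 18.9 CPM in the WT-labelled libraries to 224 to 229 CPM in the KO-labelled ones, Itga6 was higher and Itga9 lower in the KO-labelled libraries, and the groups overlap for Itga7.

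Itga11 (chromosome 9, 62677826 to 62783982, plus strand, GRCm38, 30 exon blocks in GENCODE M21), the receptor for fibrillar collagen that fibroblasts carry in wounds and tumor stroma, had 578, 634 and 555 counts in the WT-labelled libraries and 8117, 9315 and 7392 in the KO-labelled ones. The groups lay far apart, with 17.4 to 18.9 CPM in one and 224 to 229 CPM in the other. The means in CPM (counts scaled to a common library size with edgeR's TMM factors) were 18.3 ± 0.789 and 226 ± 3.19 (SD, n = 3 in each group). The log2 fold change was 3.63 (standard error 0.04, 95% interval 3.54 to 3.71), a change of 12.4-fold (adjusted p = 3.75e-15). Of all genes tested, 1.53% changed by more. The value stayed between 3.59 and 3.68 over all alternatives tried. Its coefficient of variation was 4.32% and 1.41% across wells, against 4.12% and 1.10% from counting alone.

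Itga1 (chromosome 13, 114953096 to 115101964, minus strand), a collagen receptor with a preference for collagen IV that mesenchymal cells carry widely, had 16169, 19392 and 19662 counts in the WT-labelled libraries and 22412, 28154 and 24971 in the KO-labelled ones. It was the member with the most counts, and its groups did not overlap in CPM. Its means were 570 ± 50.6 and 688 ± 62.7 CPM (SD, n = 3), a log2 fold change of 0.27 (standard error 0.07, 95% interval 0.13 to 0.41, adjusted p = 0.00335), and it stayed below the fold limit. The spread across wells was wide for so deep a gene, with a coefficient of variation of 8.86% and 9.11% against 0.737% and 0.630% from counting. The exons of Itga1 share 685 bases (3.68% of its exon length) with Gm49395 on the same strand. How reads in those bases were counted is not given in the sources used here. Gm49395 itself had 60, 75 and 65 counts against 104, 115 and 118, far fewer than Itga1.

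Itga2 (chromosome 13, 114833081 to 114932100, minus strand), the collagen receptor of platelets and epithelia, lies 21.0 kb from Itga1 on the same strand. It had 18, 23 and 20 counts in the WT-labelled libraries and 28, 45 and 40 in the KO-labelled ones. The groups did not overlap, with means of 0.629 ± 0.0562 and 1.03 ± 0.215 CPM (SD, n = 3), and the log2 fold change was 0.70 (standard error 0.23, 95% interval 0.20 to 1.20, adjusted p = 0.0193). This call rests on few counts. It was lost with DESeq2 (adjusted p = 0.0805) and without WT-labelled replicate 1 (0.0586), KO-labelled replicate 2 (0.0631) or KO-labelled replicate 3 (0.0675).

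Itga3 (chromosome 11, 95044474 to 95076801, minus strand), the laminin-332 and laminin-511 receptor, had 5785, 6175 and 5931 counts in the WT-labelled libraries and 5888, 6719 and 5550 in the KO-labelled ones. Scaled for depth, all 3 KO-labelled libraries lay below all 3 WT-labelled ones, with means of 165 ± 3.57 and 185 ± 0.765 CPM (SD, n = 3). The log2 fold change was -0.16 (standard error 0.03, 95% interval -0.23 to -0.10, adjusted p = 3.85e-04), which is below the fold limit.

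Itga6 (chromosome 2, 71745616 to 71858416, plus strand), the laminin receptor of epithelial basal surfaces, pairs with Itgb1 or Itgb4. It had 83, 82 and 80 counts in the WT-labelled libraries and 298, 355 and 298 in the KO-labelled ones, and the groups lay well apart. Its means were 2.53 ± 0.103 and 8.65 ± 0.327 CPM (SD, n = 3). The log2 fold change was 1.77 (standard error 0.09), a change of 3.41-fold (adjusted p = 5.63e-09), and it ranged from 1.74 to 1.83 over the alternatives.

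Itga7 (chromosome 10, 128933818 to 128958282, plus strand), the laminin receptor of muscle, had 56, 57 and 52 counts in the WT-labelled libraries and 59, 85 and 75 in the KO-labelled ones. The groups overlap, since KO-labelled replicate 1 lies among the WT-labelled libraries in CPM. The log2 fold change was 0.22 with a 95% interval from -0.12 to 0.56 (adjusted p = 0.245), so at this depth neither no change nor a change close to the fold limit is outside the interval. Its exons share 9 bases with Mettl7b on the opposite strand, a gene with 5, 11 and 10 counts against 17, 17 and 16.

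Itga9 (chromosome 9, 118606690 to 118901003, plus strand), the receptor for tenascin-C, osteopontin and VCAM1, had 715, 736 and 686 counts in the WT-labelled libraries and 352, 406 and 371 in the KO-labelled ones. Every KO-labelled library was lower, with means of 22.1 ± 0.671 and 10.3 ± 0.813 CPM (SD, n = 3). The log2 fold change was -1.10 (standard error 0.06), which is 2.15-fold lower (adjusted p = 1.62e-08). Over the alternatives it ranged from -1.17 to -1.05.

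Levels of different genes were compared per length, as CPM per kilobase of all annotated exons of the gene. In the WT-labelled libraries the order was Itga3 (32.4 ± 0.134), Itga1 (30.7 ± 2.72), Itga11 (3.56 ± 0.154), Itga9 (2.87 ± 0.0872), Itga6 (0.281), Itga7 (0.211) and Itga2 (0.0882). Itga3 and Itga1 were neighbours that do not differ beyond their spread, because Itga1 ran from 27.7 to 33.1 and Itga3 from 32.3 to 32.5 with this length. In the KO-labelled libraries, Itga11 came first at 44.0 ± 0.621, then Itga1 (37.0 ± 3.37) and Itga3 (28.9 ± 0.625). Itga9 (1.34), Itga6 (0.959), Itga7 (0.246) and Itga2 (0.144) followed.

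Parts of both orders depend on the length used. With the longest annotated transcript of each gene in place of all its exons, Itga1 came first in the WT-labelled libraries, at 52.0 ± 4.61 CPM per kilobase against 38.0 ± 0.157 for Itga3, and those 2 no longer overlapped. In the KO-labelled libraries Itga1 came before Itga11, and Itga6 (2.01 ± 0.0760) came before Itga9 (1.47 ± 0.116).

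With all exons as length, Itga11 made up 5.09% of the members' summed CPM per kilobase in the WT-labelled libraries and 39.1% in the KO-labelled ones. The 3 collagen receptors together moved from 48.9 ± 1.97% to 72.0 ± 0.543% of that sum (SD, n = 3), and the 3 laminin receptors from 47.0 ± 1.69% to 26.8 ± 0.567%. The share of Itga9 went from 4.11% to 1.19%. These shares are a description with no test, and a share can fall without a fall in level. The laminin receptors summed to 32.9 ± 0.127 CPM per kilobase in the WT-labelled libraries and 30.1 ± 0.655 in the KO-labelled ones. The collagen receptors summed to 34.3 ± 2.64 and 81.1 ± 2.98. Itga1 fell in share from 43.7% to 32.8% while its level per kilobase went from 30.7 to 37.0. The ratio of Itga1 to Itga11 per kilobase was 8.64 ± 1.04 in the WT-labelled libraries and 0.842 ± 0.0854 in the KO-labelled ones. With the longest transcript as length, the ratio was 14.2 and 1.38, so that Itga1 stayed ahead of Itga11. The plot of shares per library shows the change of make-up with exon length.

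**Figure D3:**
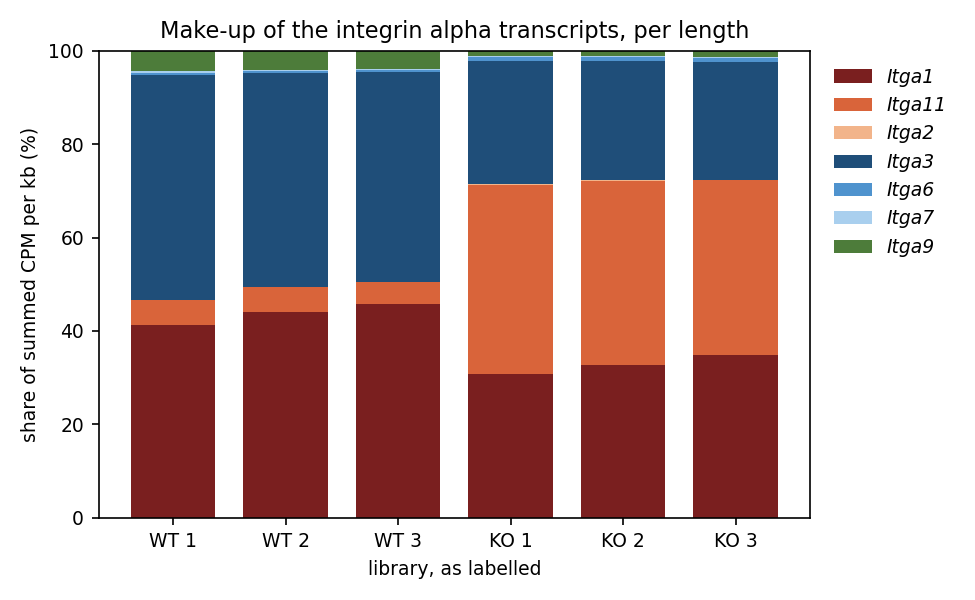
Share of each member in the members' summed CPM per kilobase of exon (%), stacked for each of the 6 libraries as labelled. Itga11 takes from 4.68 to 5.35% in the WT-labelled libraries and from 37.4 to 40.5% in the KO-labelled ones, while Itga1 and Itga3 take smaller shares. Shares are not levels: Itga1 stood at 30.7 CPM per kilobase in the WT-labelled libraries and 37.0 in the KO-labelled ones.

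The summed level of the 7 members was 70.1 CPM per kilobase in the WT-labelled libraries and 113 in the KO-labelled ones, while their shared partner Itgb1 stood at 455 ± 2.77 and 440 ± 4.32 CPM per kilobase. Itgb1 had 58384, 61780 and 59541 counts in the WT-labelled libraries and 64252, 74147 and 59303 in the KO-labelled ones, a log2 fold change of -0.05 (adjusted p = 0.122). The sign of that small value turned with upper-quartile scaling (0.01). Itgb4, the other partner of Itga6, had 19, 15 and 12 counts against 23, 42 and 36 and was higher by 0.94 on the log2 scale (adjusted p = 0.0108). Itgb7, the other partner of Itga4, has no row in the table used here.

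Of the 15 other integrin subunits listed, 9 were tested and all 9 passed the p threshold, beside 58.7% of all genes. With the fold limit 4 of the 9 (44.4%) were called, beside 17.7% of all genes. Itgav, the alpha chain of the RGD receptors for vitronectin and latent TGF-beta, rose by 1.25 on the log2 scale. Itgb8, which pairs with Itgav to bind latent TGF-beta, had 1274, 1387 and 1436 counts in the WT-labelled libraries and 7, 14 and 10 in the KO-labelled ones (log2 fold change -7.21). Itga8 fell by 1.81 and Itgb3 by 0.80. Itga10, the remaining collagen receptor, had 117, 126 and 103 counts against 170, 190 and 191 (log2 fold change 0.49), below the fold limit. The plot of integrin changes sets the members beside these subunits.

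**Figure D4:**
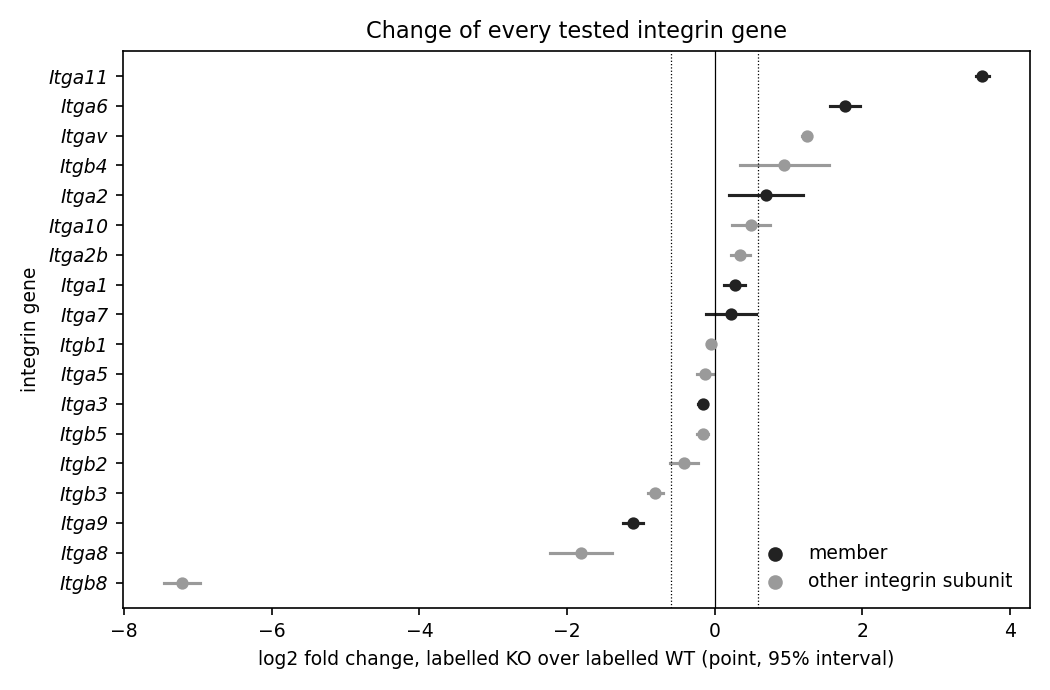
Log2 fold change of the KO-labelled libraries over the WT-labelled ones for each tested integrin gene, with its 95% interval. Dark points are the 7 members and grey points the other subunits, and dotted lines mark a 1.5-fold change. Itga11 sits at the top with 3.63 and Itgb8 at the bottom with -7.21.

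The genes for the members' ligands were listed by receptor class. Of 36, 30 were tested, 6 higher and 6 lower (40.0% called, beside 17.7% of all genes). A stricter filter dropped any gene that had fewer than 10 counts in a library. It left 27 ligand genes with 8 calls, beside 14.6% called among all genes it left. Col4a3, Col4a4 and Lamc3, called higher from few counts in the WT-labelled libraries, were dropped by it. For the collagen class, 14 were tested, 3 were higher and 1 was lower (28.6% called, beside 17.7% of all genes). Col1a1 and Col1a2, the chains of the collagen I that Itga11 binds, stood at log2 fold changes of 0.01 and -0.19, and Col3a1, the chain of collagen III, fell by 0.94. The calls that were higher were all chains of collagen IV outside the common pair. Col4a3 had 1, 2 and 1 counts in the WT-labelled libraries and 213, 280 and 273 in the KO-labelled ones, a ratio of summed counts of 168 with a 95% counting interval from 65.5 to 619. Col4a4 had 4, 4 and 6 against 398, 512 and 435 (log2 fold change 6.37), and Col4a6 rose by 1.72. Col4a1 and Col4a2, the common pair, stood at 0.00 and -0.06. Not every chain outside that pair rose, since Col4a5 stood at 0.02, with means of 593 and 602 CPM.

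Of the laminin chains, 9 were tested, 2 were higher and 1 was lower (33.3% called, beside 17.7% of all genes). Lamb3, a chain of laminin-332, had 61, 68 and 65 counts against 1035, 1314 and 1053 (log2 fold change 3.94). Lamc3 had 4, 3 and 2 against 13, 19 and 11 (2.03). Lama4 fell by 0.69, a call that was lost without WT-labelled replicate 1 (-0.57).

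Of the 7 tested genes listed as ligands of the alpha4 and alpha9 receptors, 4 were lower and 1 was higher. That is 71.4% called, beside 17.7% of all genes, of which 6.1% were lower and 11.6% higher. The median log2 fold change of the list was -0.59. The list takes in tenascin-X (Tnxb), whose binding to these receptors was not examined here, so the count and the median describe the list as drawn. Tenascin-C (Tnc), a ligand of Itga9, had 8805, 10449 and 10730 counts in the WT-labelled libraries and 5589, 7078 and 5963 in the KO-labelled ones (log2 fold change -0.87). Tnxb, tenascin-X, fell by 1.82 and Spp1, osteopontin, by 1.33. Vcam1 fell by 0.59, a call at the very edge of the fold limit that was lost without WT-labelled replicate 2 or 3 or KO-labelled replicate 2 or 3 (-0.58 in each), with upper-quartile (-0.53) or total-count scaling (-0.55), with a minimum of 10 counts in every library (-0.58), and with a 2-fold limit. Svep1, a large matrix protein that binds Itga9, rose by 0.85, and Fn1, fibronectin, stood at -0.11 (adjusted p = 0.0909).

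The adhesion machinery was counted as 24 genes, of which 22 were tested. None was called, beside 17.7% of all genes. With no fold limit 18 (81.8%) passed the p threshold (11 up, 7 down), beside 58.7% of all genes. The median log2 fold change was 0.09. The largest changes, Tln2 and Ptk2b at 0.57 each, lay close below the limit. The number called was 2 with upper-quartile or total-count scaling and without KO-labelled replicate 1, and 1 without WT-labelled replicate 3 or KO-labelled replicate 2. Tln1, the main talin, stood at -0.13, Ilk at 0.04 and Ptk2, focal adhesion kinase, at -0.07. Among 15 membrane partners and other matrix receptors, all tested, 1 (6.67%) was called: Bcam, the Lutheran laminin receptor, had 7, 1 and 4 counts against 123, 133 and 129 (log2 fold change 4.78). The tetraspanin Cd151, the partner of Itga3 and Itga6, stood at 0.15. The plot of lists shows these genes by class.

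**Figure D5:**
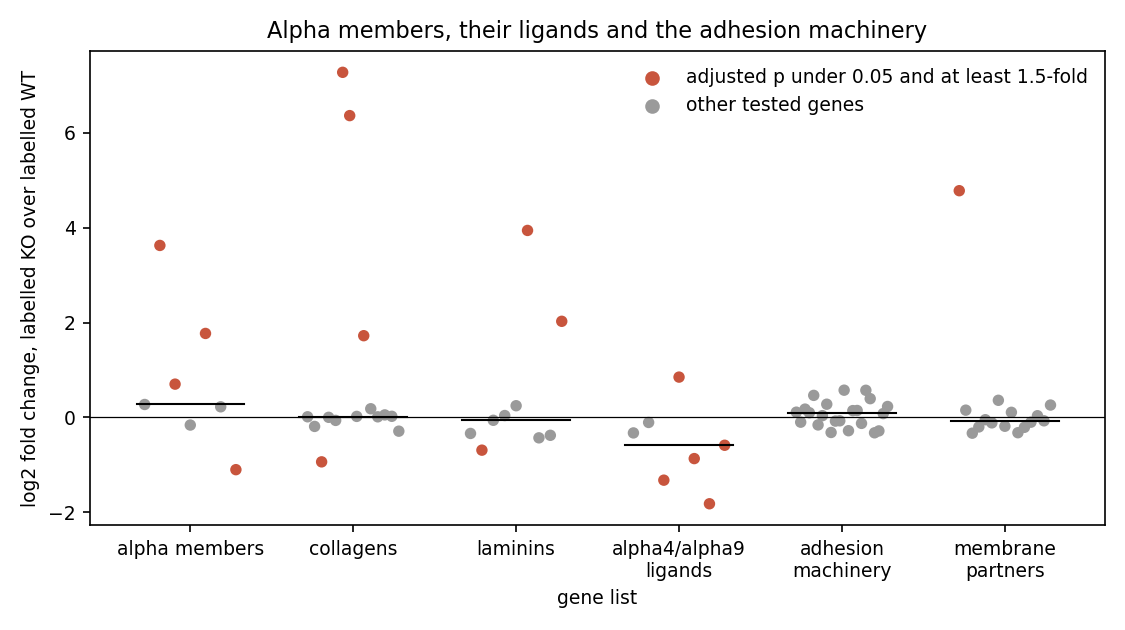
Log2 fold change of the KO-labelled libraries over the WT-labelled ones for each tested gene of 6 lists, with a bar at the list's median. Colored points are genes called by both the p and the fold limit. The genes listed as alpha4 and alpha9 ligands, Tnxb among them, have a median of -0.59, and none of the 22 adhesion genes is colored.

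Genes that move with Itga11 across the 6 libraries were named by Pearson's r of log2 CPM, as a description. Fgfr1, Npnt and Ltbp4 came first, with r of 0.9999 each and log2 fold changes of 1.10, 1.89 and 3.60, and 654 genes had an r above 0.99. The 6 points fall into the 2 groups of 3 libraries, which all these genes separate.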

How the data were processed

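RNA of 6 wells was sequenced after selection for polyadenylated RNA. The authors deposited a table of unnormalized read counts per gene and a table of log2 CPM values. The submitters' processing notes name STAR 2.7.2b, featureCounts, limma and GRCm38.p6, without roles. The annotation and strand setting are not given in the sources used here. Totals ran from 31728420 to 41035931 counts, and replicates differed by more than sampling noise.

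Counts were tested with edgeR 4.0.16 (R 4.3.3): TMM scaling, filterByExpr, quasi-likelihood F test, and Benjamini-Hochberg adjustment over all 14289 genes. A call needs an adjusted p under 0.05 and a 1.5-fold change. With 3 against 3 libraries, an exact two-sided permutation test of 1 gene cannot go below 0.1. The code was tested on simulated data.

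Positions and lengths are from GENCODE M21 (GRCm38). The version of the Itga6 identifier differs from that in M21. Every member, the Gli genes, beta partners, genes overlapping a member and the strongest calls of each list (up to 4 in each direction) were named by rule. Other genes, given for context, were chosen after their values were seen. The members and lists were chosen with earlier results of these data known. The E-box and ETS letters were added after the sequences had been read.

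Alternatives were scaling by RLE, by upper quartile or by total counts, other filters and fold limits, DESeq2 1.42.0, limma 3.58.1 (voom on the counts and on the deposited log2 values), and leaving out each library. Lengths of the longest transcript were an alternative chosen after seeing the data.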

Additional observations from a re-analysis of the deposited data

How the results depend on the processing

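Over 16 alternatives, the members gave 112 values. Of these, 105 kept their direction and their side of the threshold and 0 reversed. The number of members called was 4, with a range of 3 to 4 when 1 library was left out, 3 with DESeq2 or a 2-fold limit, and 6 with no fold limit. Itga11, Itga6 and Itga9 were called under every alternative, and Itga2 was not called under DESeq2, the 2-fold limit, or without WT-labelled replicate 1, KO-labelled replicate 2 or KO-labelled replicate 3.

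Of the 78 related genes tested, 18 (23.1%) were called, beside 17.7% of all genes. The number was 60 with no fold limit (76.9%, beside 58.7% of all genes) and 11 with a 2-fold limit (beside 10.2% of all genes). It ran from 17 to 21 when 1 library was left out. Once genes with fewer than 10 counts in a library were dropped, 12 calls remained among 73 related genes, beside 14.6% of all genes kept. Col4a3, Col4a4, Lamc3, Bcam and Itgb8 were dropped there. The excess of calls over all genes therefore rested in part on genes with few counts in 1 group. The Itgb1 log2 fold change turned to 0.00890 with upper-quartile scaling. With the longest transcript as length, chosen after seeing the data, the share of Itga11 in the KO-labelled libraries was 31.1% instead of 39.1%.

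No paired analysis was possible because the labels give the samples no replicate numbers that the groups share. Counts from 12 to 85 in a library limit Itga2, Itga7 and Itgb4. Wells of a line do not show the spread between independently made lines.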
